A study of Mus musculus with 12 samples.

Results

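The Hox cluster genes of the mouse were followed in brown adipose tissue (BAT) and inguinal white adipose tissue (WAT) by RNA sequencing of polyadenylated transcripts. They were taken as the protein-coding genes named Hox with a cluster letter a, b, c or d and a number, which gave 39 of the 52550 genes in the count table, with antisense and other noncoding genes of the clusters left out. The 12 libraries form 4 groups of 3: BAT AKO, BAT control, WAT AKO and WAT control. AKO animals carried the floxed alleles Mcu fl/fl and an adipose deletion of Mcu, which encodes the pore of the calcium uniporter of mitochondria. Controls were Mcu fl/fl mice without that deletion, and all animals ate a high-fat diet. The sources used here do not give age, sex, Cre driver or floxed exon, and they do not say that each library came from its own animal. The p-values below therefore describe how these libraries spread, which may be technical.

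Hox genes encode homeodomain transcription factors that give cells their position along the head-to-tail axis of the embryo. They lie in clusters in which a gene's place matches the body level where it is active, with low paralogue numbers (anterior genes) working nearer the head and high numbers (posterior genes) nearer the tail, and genes of 1 number in different clusters (a paralogue group) descend from a common ancestor. Many adult mesenchymal tissues, fat depots among them, keep part of the Hox pattern of the level at which they arose. In the mouse the classical brown depot lies between the shoulder blades and the inguinal white depot lies at the hind limb. Polycomb complexes keep silent stretches of the clusters closed, trithorax complexes hold active stretches open, retinoic acid opens the anterior ends in the embryo, and PBX and MEIS proteins (TALE cofactors) bind DNA together with HOX proteins.

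In the mm10 build the Hoxa cluster (11 genes) lies on the minus strand of chromosome 6 at chr6:52155590-52260880. The Hoxb cluster (10 genes) lies on the plus strand at chr11:96194316-96368256, the Hoxc cluster (9 genes) on the plus strand at chr15:102921103-103036852 and the Hoxd cluster (9 genes) on the plus strand at chr2:74668310-74765142. The clusters also hold microRNA genes, which are small RNAs that pair through their seed, bases 2 to 8, with target transcripts. Their mature forms are shown because 2 families lie among the genes described here and pair with Hox transcripts; mature microRNAs are not captured in polyadenylated libraries and were not measured. The sequences are from RefSeq (GRCm38.p6), 5′ to 3′, with the seed in capitals.
miR-196a-5p: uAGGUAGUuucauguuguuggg
miR-196b-5p: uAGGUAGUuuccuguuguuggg
miR-10a-5p: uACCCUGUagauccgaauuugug
miR-10b-5p: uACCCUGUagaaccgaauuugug
The miR-196 members share the seed AGGUAGU and the miR-10 members share ACCCUGU. Mir196a-1 lies in the Hoxb cluster (chr11:96265187-96265208, plus strand), Mir196a-2 in the Hoxc cluster (chr15:102973365-102973386, plus strand) and Mir196b in the Hoxa cluster (chr6:52230129-52230150, minus strand). Mir10a lies in the Hoxb cluster (chr11:96317186-96317208, plus strand) and Mir10b in the Hoxd cluster (chr2:74726074-74726096, plus strand).
The transcript of Hoxb8 holds the closest match to miR-196a-5p in the annotation. Of 22 bases, 21 pair by Watson-Crick rules in its 3′ UTR at chr11:96284888-96284909 (plus strand), shown from GENCODE M21 with the paired bases in capitals.
Hoxb8 site: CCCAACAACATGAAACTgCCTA
Among the transcripts of 21901 genes in GENCODE M21, no other gene reached 18 paired bases. Cleavage of Hoxb8 RNA at this site by miR-196 is known from mouse embryos.

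The tissue labels were checked on marker genes. Ucp1, the uncoupling protein of brown adipocytes, had 51371 to 70621 counts in the 6 BAT libraries and 0 to 255 in the 6 WAT libraries. Lep, the white adipocyte hormone leptin, had 1321 to 6513 counts in BAT and 23191 to 88900 in WAT. Mcu had 138, 198 and 115 counts in BAT AKO libraries against 357, 409 and 329 in BAT control libraries, and 234, 251 and 238 in WAT AKO libraries against 359, 392 and 373 in WAT control libraries. In each fat all AKO libraries lay below all controls. Total counts ran from 15692588 to 18967159 per library. Skeletal muscle transcripts, summed over 11 markers, stood at 17340 CPM (counts scaled to library totals) in BAT AKO 2, 23590 in WAT AKO 2 and 13480 in WAT control 1, and at 70.5 to 3426 in the other libraries. B lymphocyte transcripts, over 7 markers, stood at 483 to 1240 CPM in WAT AKO and 377 in WAT control 2, and at 9.62 or less in the other 8 libraries.

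Levels below are the deposited FPKM values, counts scaled by exon length and library total, which take transcript length into account and can be compared between genes. Of the 39 genes, 34 had at least 1 count. Hoxb13, Hoxc12, Hoxc13, Hoxd12 and Hoxd13, all at the posterior ends of their clusters, had 0 counts in all 12 libraries, and a count of 0 allows up to 3 counts per library. Hoxa11, Hoxa13, Hoxb1 and Hoxd11 had 1 to 8 counts in all. A mean of at least 1 FPKM was reached by 15 genes in BAT AKO, 16 in BAT control and 20 in each WAT group. In a bulk tissue, fewer cells that use a gene and less RNA per cell cannot be told apart.

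**Figure D1:**
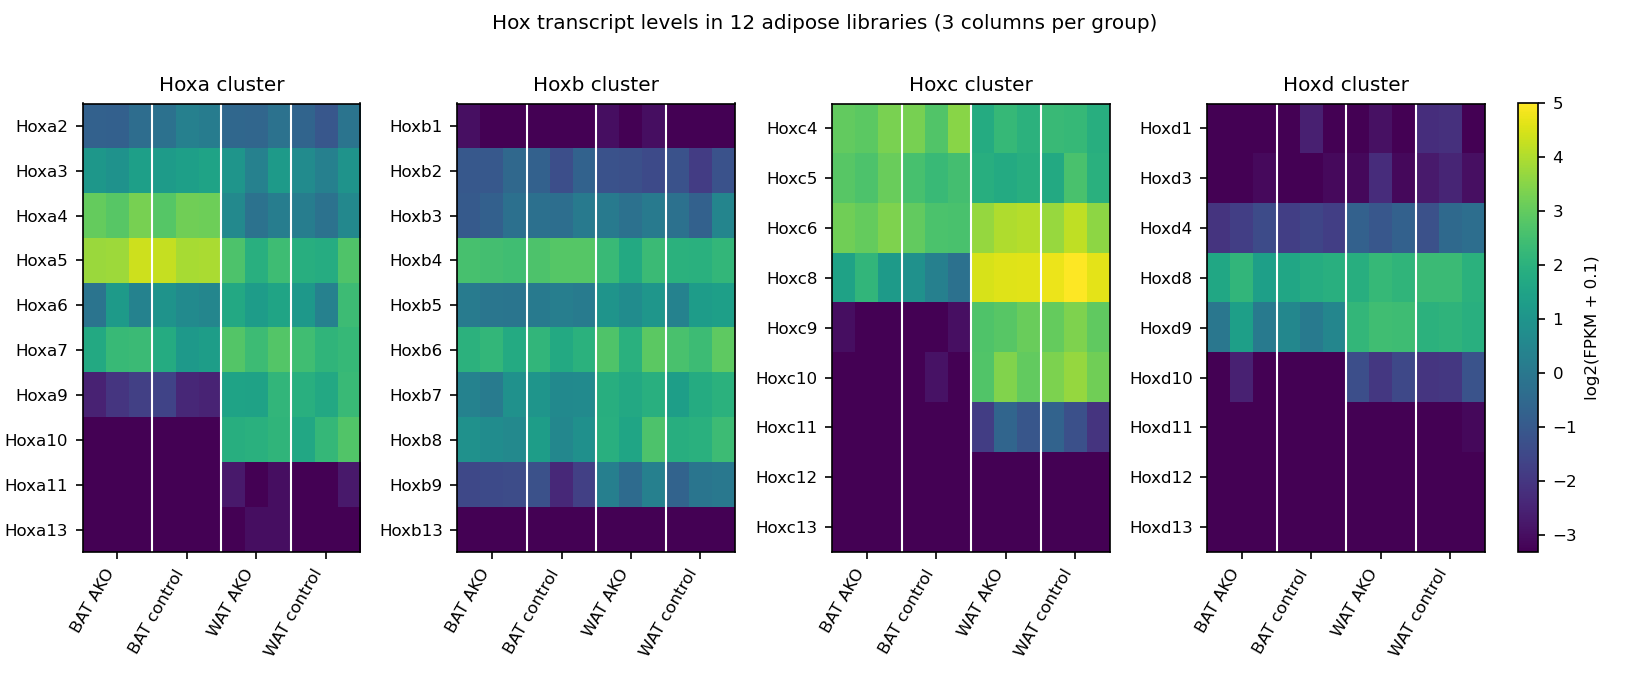
Each row is 1 of the Hox genes shown, ordered by paralogue number within its cluster, and each column a library, in the groups BAT AKO, BAT control, WAT AKO and WAT control, with 3 columns each. Colour gives log2(FPKM + 0.1). Hoxa10, Hoxc9 and Hoxc10 are at or near 0 in the BAT libraries, and 5 genes are at 0 in all 12 libraries.

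The leading Hox transcript differed between the fats. In BAT it was Hoxa5, with 15.8 ± 3.97 FPKM in AKO and 16.4 ± 2.23 in control tissue (SD, n = 3 each). In WAT it was Hoxc8, with 23.6 ± 1.04 FPKM in AKO and 28.1 ± 3.76 in control tissue (SD, n = 3 each). Behind Hoxa5 in BAT control came Hoxc4 (9.20 ± 2.44), Hoxa4 (8.26 ± 1.23), Hoxb4 (6.71 ± 0.313) and Hoxc6 (6.68 ± 1.09), where Hoxa5 stood clear. The mean ± SD ranges of Hoxc4 and Hoxa4 met, as did those of Hoxb4 and Hoxc6, and those of Hoxa4 and Hoxb4 did not. In WAT control Hoxc6 (14.4 ± 3.41), Hoxc10 (10.6 ± 1.98) and Hoxc9 (8.75 ± 1.502) followed Hoxc8, which stood clear of them, and the mean ± SD ranges of neighbours among these 3 met. The first 4 places in WAT AKO were held by the same genes in the same order.

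Summed over paralogue groups 9 to 13, posterior transcripts made up 2.35 ± 1.25% of all Hox FPKM in BAT AKO and 24.7 ± 2.45% in WAT AKO, and 2.02 ± 0.305% in BAT control and 26.3 ± 0.738% in WAT control (SD, n = 3 each). Anterior transcripts, groups 1 to 4, made up 33.1 ± 2.38% in BAT AKO and 11.8 ± 0.866% in WAT AKO, and 38.8 ± 4.42% in BAT control and 11.2 ± 1.39% in WAT control. The central groups 5 to 8 held 55.4 to 65.8% in every library. The fats did not overlap in the anterior or the posterior share. All Hox FPKM together came to 80.8 ± 7.49 in BAT AKO and 119.5 ± 9.44 in WAT AKO, and to 76.8 ± 5.67 in BAT control and 126 ± 8.91 in WAT control. These sums hold no TMM scaling, with factors of 0.845 to 0.875 in BAT and 1.05 to 1.26 in WAT. That scaling would narrow the gap between the fats, so the sums do not show which fat holds more Hox transcript.

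**Figure D2:**
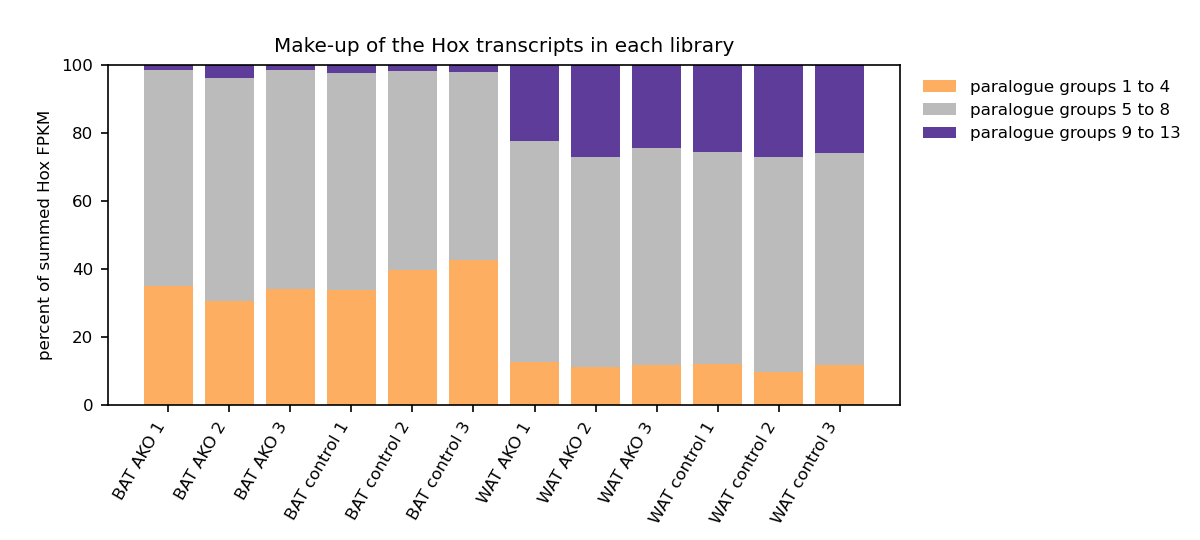
Stacked bars give the percent of summed Hox FPKM held by paralogue groups 1 to 4, 5 to 8 and 9 to 13 in each of the 12 libraries. The posterior share lies between 1.60 and 3.798% in the 6 BAT libraries and between 22.3 and 27.2% in the 6 WAT libraries.

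Which Hox genes separate brown from white fat was asked within each genotype, on 6 libraries that the other genotype's comparison does not share. The answer followed the order of the clusters: the genes called higher in BAT lay in paralogue groups 2 to 5, and those called lower lay in groups 6 to 10 but for Hoxd4. In AKO tissue 26 of the 39 genes passed the filter on low counts, 7 were higher in BAT and 9 lower (edgeR quasi-likelihood F-test, Benjamini-Hochberg adjusted p under 0.05 over all genes). Of all 15671 genes tested there 59.3% were called, 28.8% higher and 30.5% lower, so the share of Hox genes called is near that of all genes. In control tissue 26 passed, 7 were higher in BAT and 10 lower, against 50.1% of 15031 genes called, 24.4% higher and 25.7% lower. The 14 genes called in both comparisons (87.5% of the AKO calls and 82.4% of the control calls) had the same direction in each, 6 higher and 8 lower. At an unadjusted p under 0.05 there were 17 Hox genes in AKO, against 63.8% of all genes, and 19 in control tissue, against 56.8%. On the TMM scale the fats did not overlap for 9 Hox genes higher and 11 lower in BAT AKO, against 32.9% and 34.6% of all genes (67.5% either way), and for 8 higher and 11 lower in BAT control, against 30.2% and 31.2% (61.4% either way).

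The direction lay along the clusters. Of the 12 genes in paralogue groups 1 to 4, 3 were not tested, 5 were higher in BAT AKO and 0 lower, and 5 were higher in BAT control and 1, Hoxd4, lower. Of the 11 genes in groups 5 to 8, all tested, 2 were higher and 3 lower in each genotype, the higher ones Hoxa5 and Hoxc5. Of the 16 genes in groups 9 to 13, 10 were not tested, and 0 were higher and 6 lower in each genotype. Among those lower, Hoxa10, Hoxc9 and Hoxc10 had 0 or 1 counts over each BAT group and passed the filter only through WAT. Their direction was thus fixed by the filter. The same holds for Hoxd4, which did not pass it between the BAT groups. The place of the turn, past group 5, was read from these calls and is a description. But for Hoxd4, calls lower in BAT began at group 6 in control tissue (Hoxc6) and at group 7 in AKO (Hoxb7). In the Hoxd cluster 0 genes were called higher in BAT in either genotype, so it held no turn. Across the 26 genes tested, Spearman's rho between paralogue number and log2 fold change was -0.79 in AKO and -0.81 in control tissue. It is a description over genes that share libraries, and it includes the genes whose direction was fixed by the filter. No called gene turned its sign under any alternative run. Scaling mattered for the smaller changes: dividing by library totals in place of TMM factors gave a median of all genes of -0.60 in AKO, against -0.02 with TMM, and of -0.40 in control tissue, against -0.04 with TMM, and then 4 Hox genes were higher and 14 lower in BAT AKO, and 5 higher and 14 lower in BAT control. Over all genes 2068 were then higher and 8759 lower in BAT AKO, against 4510 and 4781 with TMM, and 2107 higher and 6253 lower in BAT control, against 3666 and 3858 with TMM. FPKM ratios of BAT to WAT therefore lie below the fitted folds. Without the muscle-rich libraries 7 Hox genes were higher and 8 lower in BAT AKO, and 5 higher and 10 lower in BAT control. The 8 genes called in both genotypes under every alternative were Hoxa4, Hoxa5 and Hoxc4 (higher in BAT) and Hoxa9, Hoxa10, Hoxc8, Hoxc9 and Hoxc10 (lower in BAT). Of these, Hoxa10, Hoxc9 and Hoxc10 passed the filter only through WAT.

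**Figure D3:**
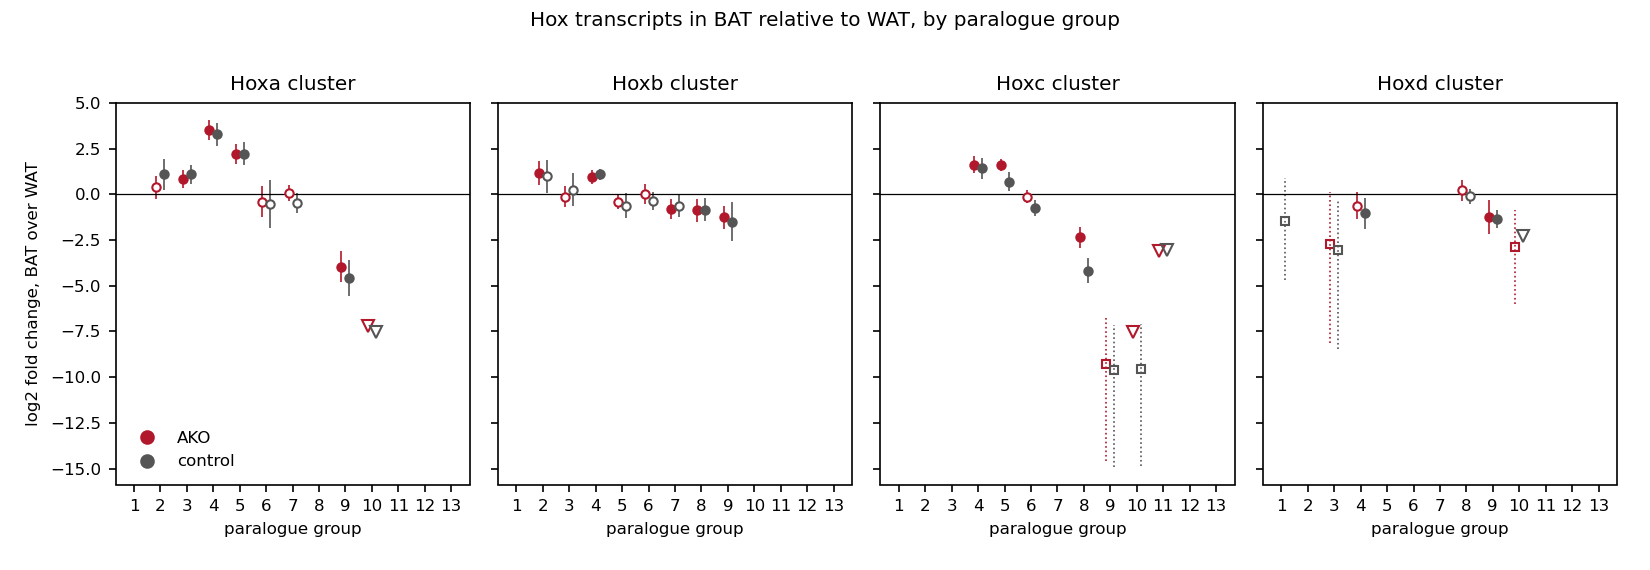
Log2 fold change of BAT over WAT by paralogue group in the 4 clusters, for AKO (red, left) and control (grey, right). Circles are edgeR estimates with 95% intervals, filled where called, squares are count ratios with dotted 95% counting intervals for genes with 1 to 3 counts in BAT, and triangles are bounds for genes with 0 counts in BAT, which lie at or below the mark. Values lie above 0 for Hoxa3, Hoxa4, Hoxa5, Hoxb4, Hoxc4 and Hoxc5 and below 0 from paralogue group 9 on in each cluster.

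Among the anterior genes the paralogue group 4 members Hoxa4, Hoxb4 and Hoxc4, which in the embryo pattern the neck and upper trunk, were each higher in BAT. Hoxa4 had 8.06, 7.13 and 9.75 FPKM in BAT AKO, against 1.40, 0.779 and 1.04 in WAT AKO, and 6.84, 9.01 and 8.92 in BAT control, against 1.06, 0.781 and 1.38 in WAT control. Every BAT library exceeded every WAT library several times over, and the fitted difference was 11.6-fold in AKO (log2 3.53 ± 0.23 SE, adjusted p = 1.76e-05, edgeR) and 9.76-fold in control tissue (3.29 ± 0.27 SE, adjusted p = 0.000153). Hoxa4 shares 255 exon bases with the antisense gene Gm29430, which had 37 counts in all, and reads of opposite strands cannot be told apart without a stated strand setting.

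Hoxc4 had 7.95, 7.33 and 9.82 FPKM in BAT AKO, against 3.38, 4.64 and 3.94 in WAT AKO. In control tissue it had 9.68, 6.56 and 11.4 FPKM in BAT, against 4.85, 4.69 and 3.65 in WAT. The groups did not overlap, with log2 differences of 1.63 ± 0.20 (SE, adjusted p = 0.000336, edgeR) in AKO and 1.42 ± 0.23 (adjusted p = 0.00273) in control tissue.

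Hoxb4, known for its role in blood stem cell expansion, differed less. It had 5.93, 5.59 and 5.37 FPKM in BAT AKO, against 4.91, 3.26 and 4.99 in WAT AKO, and 6.36, 6.82 and 6.95 in BAT control, against 3.84, 3.77 and 4.47 in WAT control. BAT was above WAT in every library of both genotypes, by log2 0.95 ± 0.15 (SE, adjusted p = 0.00133, edgeR) in AKO and 1.09 ± 0.13 (adjusted p = 0.000757) in control tissue. The call in AKO was lost when library totals replaced TMM factors (log2 0.36, adjusted p = 0.132).

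Hoxd4, the 4th paralogue, went the other way: it was low, at 0.141 to 0.270 FPKM in BAT AKO against 0.383 to 0.504 in WAT AKO, and 0.194 to 0.230 in BAT control against 0.322 to 0.709 in WAT control. It was called lower in BAT control (log2 -1.03, adjusted p = 0.0475, edgeR) and not in BAT AKO (-0.62, adjusted p = 0.128), and the control call was lost with the replicate number as a block (-0.998, adjusted p = 0.0595). Hoxd4 shares 388 exon bases with Hoxd3 and 1154 with Gm28230 on the same strand, and 347 with the antisense gene Hoxd3os1, so its level rests on how shared reads were assigned.

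Hoxa5, whose loss in mice disturbs the lung and the cervico-thoracic skeleton, was the Hox gene with most transcript in BAT. It had 13.4, 13.6 and 20.4 FPKM in BAT AKO, against 6.33, 3.70 and 5.24 in WAT AKO, and 18.98, 14.98 and 15.3 in BAT control, against 3.595, 3.44 and 6.38 in WAT control. The lowest BAT library stood above the highest WAT library by a wide margin in both genotypes, with fitted differences of 4.66-fold (log2 2.22 ± 0.23 SE, adjusted p = 0.000137, edgeR) in AKO and 4.70-fold (2.23 ± 0.27, adjusted p = 0.000706) in control tissue.

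Hoxc5 had 7.07, 6.24 and 8.44 FPKM in BAT AKO, against 3.62, 3.31 and 3.59 in WAT AKO. In control tissue it had 5.82, 4.89 and 5.67 FPKM in BAT, against 3.26, 5.99 and 3.77 in WAT. The groups were apart in AKO and overlapped in control tissue, where WAT control 2 was the highest of the 6 libraries. The log2 difference was 1.62 ± 0.14 (SE, adjusted p = 6.46e-05, edgeR) in AKO and 0.70 ± 0.21 (adjusted p = 0.0306) in control tissue, and the control call was lost with library totals (0.33, adjusted p = 0.279). Hoxc5 shares 166 exon bases with Hoxc10 on the same strand.

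Of Hoxa3 and Hoxa2, which pattern the pharyngeal arches, and Hoxb2, Hoxa3 was called higher in BAT in both genotypes and the others in 1 genotype each. Hoxa3 had 2.04, 1.80 and 2.48 FPKM in BAT AKO, against 1.93, 1.17 and 2.21 in WAT AKO, and 2.27, 2.51 and 2.73 in BAT control, against 1.499, 1.13 and 1.85 in WAT control. On this scale the AKO groups overlapped and the control groups did not, and the TMM-scaled fit gave log2 0.84 ± 0.22 (SE, adjusted p = 0.01202, edgeR) in AKO, lost with library totals (0.25, adjusted p = 0.414), and 1.10 ± 0.22 (adjusted p = 0.00579) in control tissue. Hoxa2 was called in control tissue (1.10, adjusted p = 0.0417), lost with library totals (0.75, adjusted p = 0.118), and not in AKO (0.38, adjusted p = 0.269), where it averaged 0.560 FPKM in BAT and 0.642 in WAT. Hoxb2 was called in AKO (1.19, adjusted p = 0.00804), and in control tissue it was called with the replicate number as a block (1.00, adjusted p = 0.0328) and not without it (0.98, adjusted p = 0.0695). Hoxa3 and Hoxb2 overlap antisense genes on the opposite strand. Hoxb3 did not pass, at log2 -0.12 in AKO and 0.26 in control tissue.

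In the Hoxc cluster the calls turned between Hoxc5 and Hoxc6 in control tissue. In AKO they turned between Hoxc5 and Hoxc8, with Hoxc6 not called. Hoxc6 had 9.15, 8.15 and 10.5 FPKM in BAT AKO, against 12.9, 15.9 and 16.6 in WAT AKO, and 7.94, 6.12 and 5.99 in BAT control, against 13.1, 18.3 and 11.8 in WAT control. All BAT libraries stood below all WAT libraries on this scale. It was called lower in BAT control (log2 -0.74 ± 0.19 SE, adjusted p = 0.0154, edgeR) and not in BAT AKO (-0.14 ± 0.15, adjusted p = 0.480), where it was called with library totals (-0.71, adjusted p = 0.00334). Among the central Hoxa and Hoxb genes, Hoxa6, Hoxa7, Hoxb5 and Hoxb6 were not called in either genotype. Their log2 differences were -0.41 to 0.08 in AKO and -0.61 to -0.35 in control tissue. A missing call does not show equal levels, as the 95% interval of Hoxa6 in control tissue ran from -1.82 to 0.80. Hoxa7 was called lower in BAT control with the replicate number as a block (-0.50, adjusted p = 0.0342), and 4 more Hox genes, Hoxa7, Hoxb5, Hoxb6 and Hoxb7, were lower there with library totals. Hoxb7 was called lower in AKO (-0.82, adjusted p = 0.0178) and not in control tissue (-0.63, adjusted p = 0.0786). Hoxd8 was not called, at 0.23 and -0.11. When each of the 6 libraries was left out in turn, the control call held in 1 fit for Hoxa2 and for Hoxd4, in 2 for Hoxc5 and in 4 for Hoxc6, and the AKO call of Hoxb7 held in 2. Hoxa7 shares 586 exon bases with the antisense gene Hoxaas3, and Hoxb5 shares 100 with Hoxb5os.

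Next to the change of direction in the Hoxa and Hoxb clusters lay Hoxa6 and Hoxb5, neither of them called. Hoxd8 is given for the Hoxd cluster, which held no turn. Hoxa6 had 0.813, 2.204 and 1.19 FPKM in BAT AKO, against 3.17, 2.33 and 2.81 in WAT AKO, and 1.82, 1.48 and 1.31 in BAT control, against 2.05, 1.17 and 5.17 in WAT control. Hoxb5 had 0.999, 0.870 and 0.835 FPKM in BAT AKO, against 1.87, 1.56 and 1.95 in WAT AKO, and 0.961, 1.08 and 1.003 in BAT control, against 1.19, 2.31 and 2.52 in WAT control. Hoxd8 had 3.04, 4.37 and 2.48 FPKM in BAT AKO, against 3.58, 4.67 and 4.25 in WAT AKO, and 2.93, 3.48 and 3.68 in BAT control, against 5.02, 5.05 and 3.85 in WAT control. The FPKM of Hoxb5 stood apart between the fats in both genotypes, that of Hoxa6 in AKO and that of Hoxd8 in control tissue, and the other pairs overlapped.

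Promoters on either side of the turn in the Hoxa cluster are shown for Hoxa5, higher in BAT, and Hoxa9, lower in BAT. Each is the 250 bases before the start of the gene in RefSeq (GRCm38.p6), written 5′ to 3′ on the minus strand, with CG dinucleotides in capitals.
Hoxa5, chr6:52204588-52204837: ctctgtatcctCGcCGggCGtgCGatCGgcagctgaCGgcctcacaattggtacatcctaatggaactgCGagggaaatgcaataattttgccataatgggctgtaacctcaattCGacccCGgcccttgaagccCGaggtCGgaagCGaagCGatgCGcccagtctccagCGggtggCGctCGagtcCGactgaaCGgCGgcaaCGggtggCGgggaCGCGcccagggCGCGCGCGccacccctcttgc
Hoxa9, chr6:52227371-52227620: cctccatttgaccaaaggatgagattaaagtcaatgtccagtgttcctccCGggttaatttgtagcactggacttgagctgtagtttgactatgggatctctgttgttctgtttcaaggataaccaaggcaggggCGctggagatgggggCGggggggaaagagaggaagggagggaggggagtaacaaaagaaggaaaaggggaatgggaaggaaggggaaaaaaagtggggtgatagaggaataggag
The Hoxa5 window holds 28 CG dinucleotides and the Hoxa9 window 3. The 2 windows of Hoxa10, also lower in BAT, hold 20 and 7. The windows of Hoxa3 and Hoxa2, called higher in BAT control, hold 18 and 6. A relation of CG number to direction was not tested. The Hoxa9 window lies inside the longer Hoxa9 gene of GENCODE M21 (chr6:52223100-52231089), not before its start. The Hoxa10 window with 20 (chr6:52234940-52235189) and the Hoxa3 window (chr6:52213068-52213317) likewise lie inside their genes there. The median is 12.5 over the 24 windows of 22 Hox genes in the table and 6 over all 32851 windows. On both strands TAATTA, the homeodomain core, was found in 8.33% of Hox windows and 4.84% of all windows, and TGATNNAT, a PBX-HOX site, in 16.7% of Hox windows and 7.68% of all windows. CCAAT was found in 58.3% of Hox windows and 33.8% of all windows, and TATAAA in 16.7% of Hox windows and 12.4% of all windows. The Hoxa5 window holds CCAAT once and none of the other motifs, and the Hoxa9 window holds none of these letters.

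From paralogue group 8 on, the Hoxa and Hoxc genes called lower in BAT differed by over 5-fold. Hoxc8, which patterns the thorax and the brachial motor neurons, had 2.70, 4.37 and 2.21 FPKM in BAT AKO, against 22.4, 23.9 and 24.4 in WAT AKO. In control tissue it had 1.73, 1.13 and 0.762 FPKM in BAT, against 26.9, 32.3 and 25.0 in WAT. The fats stood far apart, by 5.13-fold in AKO (log2 -2.36 ± 0.25 SE, adjusted p = 0.000153, edgeR) and by 18.03-fold in control tissue (-4.17 ± 0.29, adjusted p = 8.26e-05), lower in BAT in both.

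Hoxa9, known for its part in leukaemia and in the axial skeleton, had 7, 13 and 18 counts in BAT AKO, against 280, 263 and 421 in WAT AKO. It had 19, 8 and 7 counts in BAT control, against 391, 314 and 483 in WAT control. It was thus near the limit of detection in every BAT library and plain in every WAT library, 15.4-fold lower in BAT AKO (log2 -3.95 ± 0.36 SE, adjusted p = 7.28e-05, edgeR) and 23.7-fold lower in BAT control (-4.57 ± 0.41, adjusted p = 0.000225). Mir196b lies within a Hoxa9 exon on the same strand and had 0 counts of its own.

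Hoxa10 and Hoxc10, genes of the lumbar and hind-limb level, and Hoxc9 were on in WAT and at or near 0 in BAT. Hoxa10 had 0 counts in all 6 BAT libraries, against 218, 221 and 243 in WAT AKO and 189, 261 and 378 in WAT control. Taking 3 counts over the group as the floor, it was at least 147-fold lower in BAT AKO and at least 188-fold lower in BAT control. Hoxc9 had 1 count over the 3 BAT AKO libraries, against 288, 306 and 357 in WAT AKO, and 1 over BAT control, against 371, 450 and 332 in WAT control. The ratio of WAT to BAT was 615 in AKO (95% counting interval 110 to 24317) and 786 in control tissue (141 to 31056). Hoxc10 had 0 counts in BAT AKO, against 234, 358 and 267 in WAT AKO, at least 185-fold lower, and 1 count in BAT control, against 367, 433 and 303 in WAT control, a ratio of WAT to BAT of 752 (95% interval 135 to 29711). Intervals and floors cover counting error only.

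Hoxc9 and Hoxc10 lie just beyond Hoxc8 in the cluster, so in BAT the Hoxc transcripts ended at Hoxc8, and in WAT they ran on to Hoxc11. Hoxc11 had 0 counts in all 6 BAT libraries and 7, 20 and 13 in WAT AKO and 20, 11 and 5 in WAT control, at least 8.62-fold and at least 8.18-fold lower in BAT AKO and in BAT control. It did not pass the filter within either genotype. In the Hoxa cluster the last gene with over 10 counts in all was Hoxa9 in BAT and Hoxa10 in WAT, and in the Hoxb cluster it was Hoxb9 in both fats.

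Hoxb8, with the miR-196a site shown above, had 1.75, 1.56 and 1.39 FPKM in BAT AKO, against 3.75, 2.85 and 6.36 in WAT AKO, and 2.37, 1.33 and 1.71 in BAT control, against 3.602, 3.82 and 5.06 in WAT control. BAT lay below WAT in each genotype, by log2 -0.87 ± 0.27 (SE, adjusted p = 0.0265, edgeR) in AKO and -0.84 ± 0.26 (adjusted p = 0.0342) in control tissue, and the call was lost in 4 of 6 fits that left out 1 library in each comparison (log2 -1.05 to -0.51 in AKO and -1.09 to -0.65 in control tissue).

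Hoxb9, which acts on the rib cage, had 11, 11 and 12 counts in BAT AKO, against 53, 30 and 51 in WAT AKO, and 13, 4 and 8 in BAT control, against 26, 38 and 41 in WAT control. It was lower in BAT by log2 -1.26 ± 0.27 (SE, adjusted p = 0.00509, edgeR) in AKO and -1.51 ± 0.45 (adjusted p = 0.0284) in control tissue, with no overlap of groups. The control call was lost without BAT control 2, BAT control 3, WAT control 2 or WAT control 3 (adjusted p up to 0.0914).

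Hoxd9, a gene of the lumbar trunk and limb, had 0.887, 2.501 and 0.946 FPKM in BAT AKO, against 4.47, 5.39 and 5.27 in WAT AKO. In control tissue it had 1.34, 0.982 and 1.31 FPKM in BAT, against 3.97, 4.18 and 3.71 in WAT. BAT was below WAT in every library, by log2 -1.23 ± 0.40 (SE, adjusted p = 0.0316, edgeR) in AKO and -1.35 ± 0.21 (adjusted p = 0.00202) in control tissue. The highest BAT value was that of BAT AKO 2, the muscle-rich library, without which the AKO difference was -1.88 (adjusted p = 0.000595); the part of muscle in it was not tested. The AKO call was lost in each of the other 5 fits that left out 1 library (adjusted p up to 0.107). Hoxd10 had 0, 2 and 0 counts in BAT AKO, against 10, 5 and 8 in WAT AKO, and 0 in BAT control, against 5, 5 and 11 in WAT control.

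Hoxd1 and Hoxd3 were close to 0 throughout, with 0 to 2 counts per library in BAT and 0 to 8 in WAT. Together with the 5 genes at 0 and the 4 genes with 1 to 8 counts, these 2 and Hoxc11 and Hoxd10 are the 13 genes that did not pass the filter in either comparison. Hoxd3 shares 2225 exon bases with Gm28230 and 388 with Hoxd4 on the same strand, so its low count also rests on how shared reads were assigned.

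**Figure D4:**
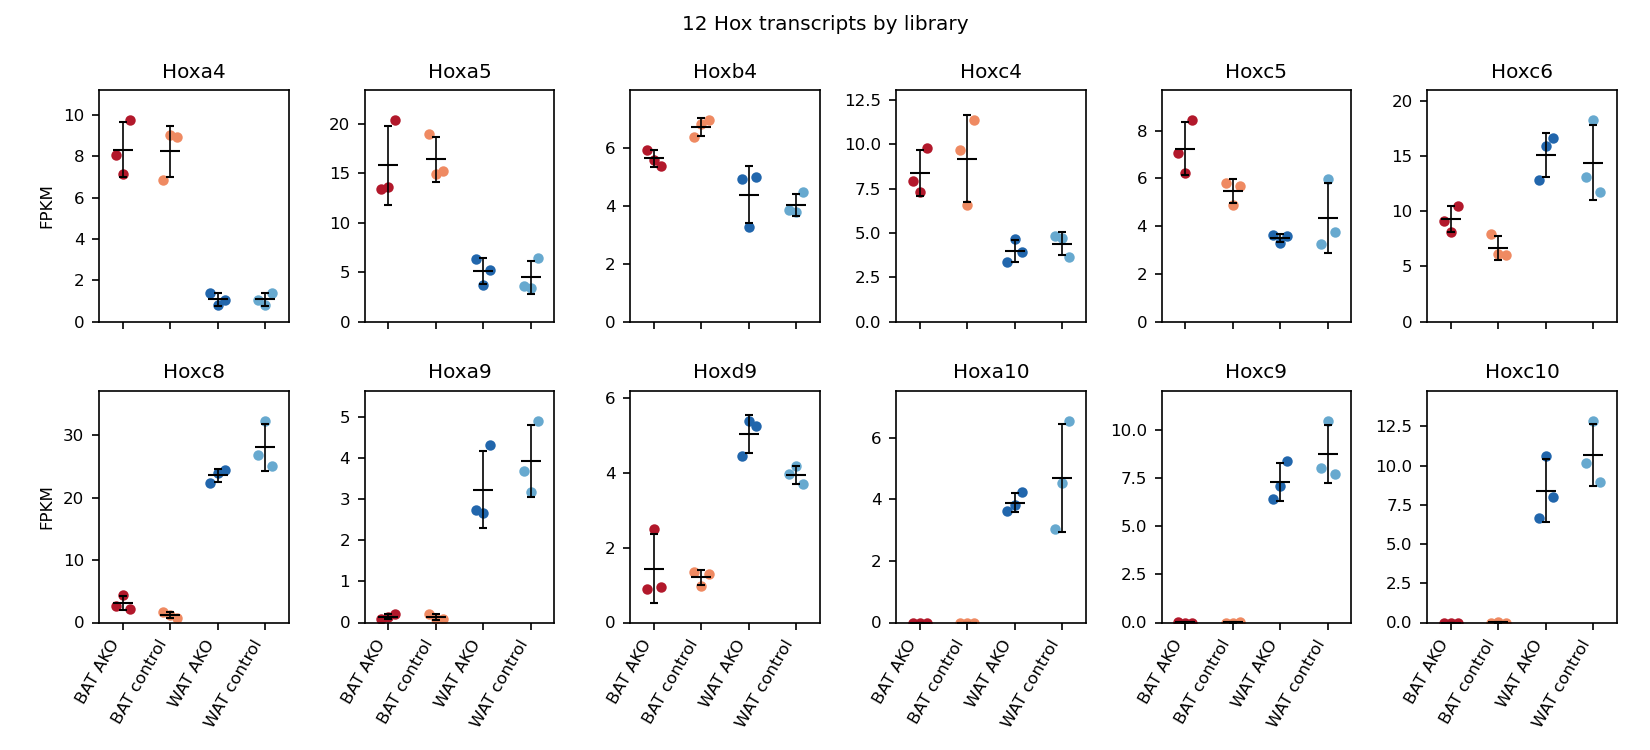
FPKM of 12 Hox genes in each library, 3 points per group, with mean and SD as black bars, in the order BAT AKO, BAT control, WAT AKO and WAT control. Hoxa4, Hoxa5 and Hoxc4 are high in BAT, and Hoxc8, Hoxa9, Hoxd9, Hoxa10, Hoxc9 and Hoxc10 are high in WAT.

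Markers of several cell types moved with the contrast of BAT and WAT. Adipose progenitor transcripts, over 5 markers all above 0, summed to 172 to 286 CPM in BAT AKO and 1488 to 1552 in WAT AKO, and to 204 to 249.2 in BAT control and 1433 to 2430 in WAT control. Macrophage transcripts, over 4 markers, summed to 58.1 to 80.4 in BAT AKO and 285 to 333 in WAT AKO, and to 74.6 to 95.1 in BAT control and 431 to 560 in WAT control. T lymphocyte transcripts, over 6 markers, summed to 2.55 to 3.61 in BAT AKO and 197 to 374 in WAT AKO, and to 1.52 to 3.76 in BAT control and 5.80 to 196 in WAT control. Smooth muscle transcripts, over 3 markers, summed to 113 to 136 in BAT AKO and 258 to 287 in WAT AKO, and to 87.2 to 141 in BAT control and 216 to 653 in WAT control. Of these markers, Acta2 was higher in every WAT library than in any BAT library. Myh11 overlapped in AKO, at 47.6, 52.9 and 65.3 CPM in BAT against 81.0, 50.9 and 70.6 in WAT, and was apart in control tissue. Tagln was at 0.51 CPM or less throughout. Endothelial transcripts, summed over 4 markers, were above WAT in BAT AKO, at 983 to 1180 against 605 to 955. They overlapped in control tissue, at 1150 to 1331 in BAT and 751 to 1475 in WAT. The markers did not move as 1: in AKO Cdh5, Kdr and Tie1 stood higher in every BAT library. Pecam1 overlapped, at 290, 277 and 245 CPM in BAT AKO against 394, 262.5 and 406 in WAT AKO. The B lymphocyte range in WAT AKO, 483 to 1240, also lay above that in BAT AKO, 4.16 to 4.80. The part of any of these in the Hox differences was not tested.

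Whether the loss of Mcu altered Hox transcripts was asked within each fat. By edgeR 0 Hox genes were called in BAT (22 tested), where 0.0771% of 14265 genes were called, 0.0491% higher and 0.028% lower. In WAT 0 were called (27 tested), where 0.0189% of 15915 genes were called. At an unadjusted p under 0.05 there were 5 Hox genes in BAT, against 13.6% of all genes, and 2 in WAT, against 22.6% of all genes. DESeq2 called 1 of 20 Hox genes in BAT, Hoxc8, against 280 of 12776 genes. In WAT it called 0 of 27, against 1679 of 15890 genes. It gave no adjusted p for Hoxa9 and Hoxb9 in BAT.

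In BAT the 3 genes with the smallest p were Hoxc8, Hoxc6 and Hoxc5, neighbours in 1 cluster. Hoxc8 had 129, 199 and 102 counts in BAT AKO, against 77, 52 and 34 in BAT control. Every AKO library stood above every control library, and the log2 difference was 1.40 ± 0.38 (SE, 95% interval 0.52 to 2.29, adjusted p = 0.264, edgeR), or 1.40 with an adjusted p of 0.0103 by DESeq2. The highest library was the muscle-rich BAT AKO 2, and without it the difference was 1.04 (adjusted p = 0.361); the part of muscle in it was not tested.

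Hoxc6 had 372, 316 and 413 counts in BAT AKO, against 300, 239 and 227 in BAT control, a log2 difference of 0.51 ± 0.15 (SE, adjusted p = 0.274, edgeR). Hoxc5 had 369, 310 and 426 in BAT AKO, against 282, 245 and 276 in BAT control, a difference of 0.45 ± 0.13 (adjusted p = 0.280). On the TMM scale the BAT groups did not overlap in 3 Hox genes higher and 2 lower in AKO, against 10.2% and 9.81% of all genes (20% either way). In WAT they did not overlap in 0 higher and 3 lower, against 15.2% and 15.4% (30.7% either way). Hoxa7 (0.76, adjusted p = 0.311) and Hoxa2 (-0.76, adjusted p = 0.334) also had an unadjusted p under 0.05, and their adjusted values missed the threshold.

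In WAT the 3 genes with the smallest p also lay in the Hoxc cluster. Hoxc8 had 1170, 1199 and 1210 counts in WAT AKO, against 1444, 1616 and 1254 in WAT control, a log2 difference of -0.38 ± 0.11 (SE, 95% interval -0.65 to -0.11, adjusted p = 0.138, edgeR). Hoxc9 had 288, 306 and 357 in WAT AKO, against 371, 450 and 332 in WAT control, at -0.39 ± 0.15 (adjusted p = 0.198), with overlap. Hoxc5 had 206, 181 and 194 in WAT AKO, against 191, 327 and 206 in WAT control, at -0.43 ± 0.21 (adjusted p = 0.272), where WAT control 2, the control library with B lymphocyte transcripts, stood apart and without it the difference was -0.20. B lymphocyte transcripts ran at 483 to 1240 CPM in WAT AKO, against 2.21 to 377 in WAT control, and their part in these differences was not tested.

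**Figure D5:**
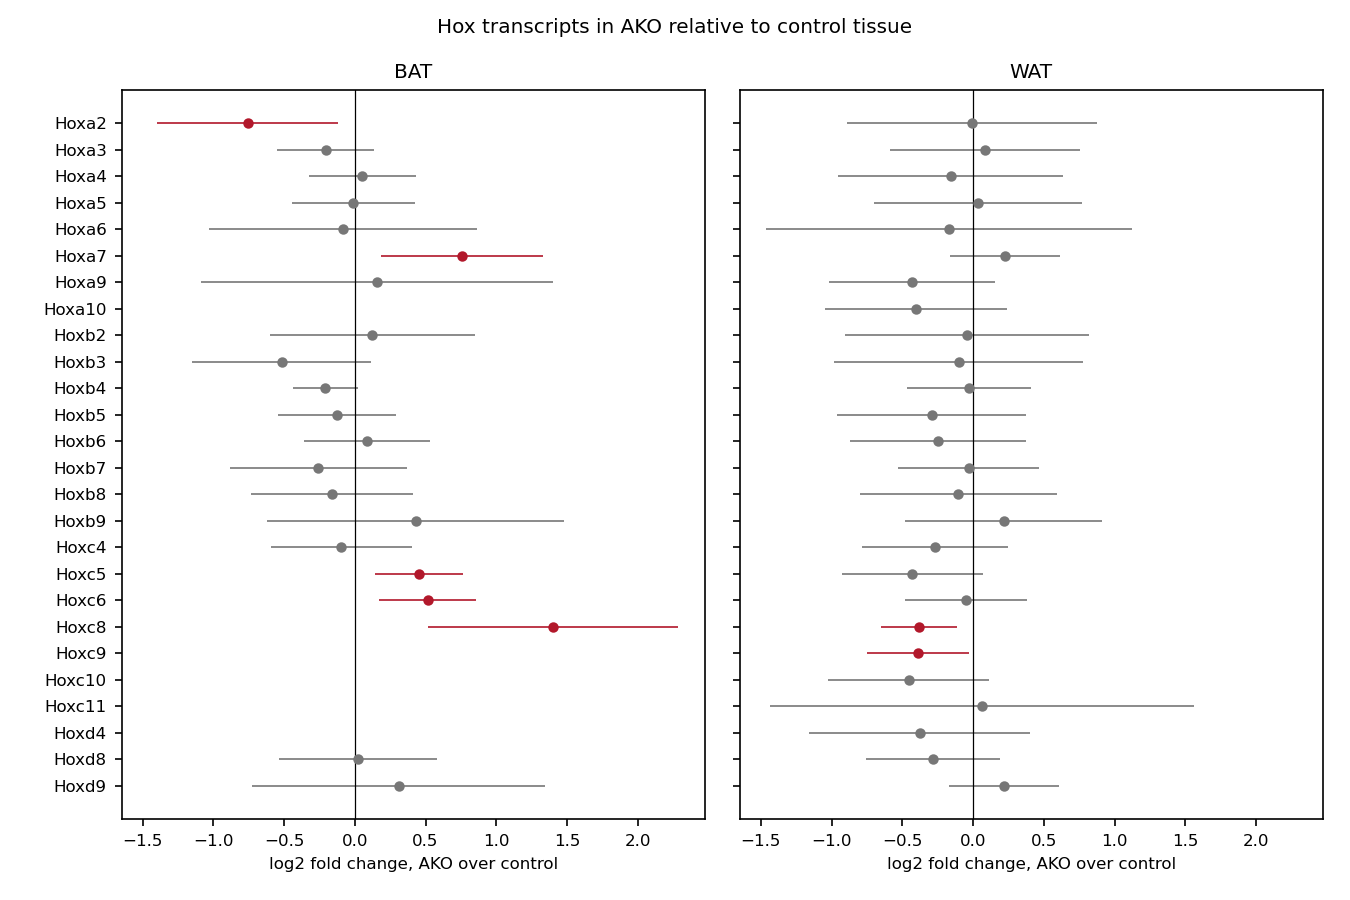
Log2 fold change of AKO over control with 95% intervals for the Hox genes shown, in BAT (left) and WAT (right), with an unadjusted p under 0.05 in red. None passed the adjusted threshold, and the widest departure is Hoxc8 in BAT at 1.40.

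The difference between the AKO effects in BAT and in WAT was tested in 1 model over 12 libraries. Among 27 Hox genes tested, 0 were called, with 0.275% of 16391 genes called, 0.153% higher and 0.122% lower, and 2 had an unadjusted p under 0.05, against 18.4% of all genes. Hoxc8 differed by log2 1.74 ± 0.40 (SE, 95% interval 0.86 to 2.61, adjusted p = 0.0878, edgeR) and Hoxc5 by 0.84 ± 0.26 (adjusted p = 0.141). This same term is the change in the BAT to WAT difference between genotypes. Hoxc8 was called by DESeq2 (1.81, adjusted p = 0.000688), with no filter (1.76, adjusted p = 0.03004) and without WAT control 2 (1.68, adjusted p = 0.0481), and Hoxc5 was called by DESeq2 (0.90, adjusted p = 0.0245). Without BAT AKO 2 the Hoxc8 difference was 1.40 (adjusted p = 0.149). Hoxa10 and Hoxc11, at 0 in every BAT library, have no estimate here.

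Genes that work with or on the clusters were followed as lists, none of which had a gene called between AKO and control in either fat. Between the fats their counts stand beside 59.3% of all genes called in AKO and 50.1% in control tissue, and nothing particular to a list is read from them. Of the 9 TALE cofactors, 8 were tested, 3 were higher and 2 lower in BAT AKO, and 2 were higher and 2 lower in BAT control, with medians of log2 0.25 and 0.15 against -0.02 and -0.04 over all genes. Meis1 and Meis2 were higher in BAT (0.59 and 0.55 in AKO, 0.84 and 0.73 in control tissue), and Meis3 (-1.88 in AKO and -1.74 in control tissue) was lower. Of 22 Polycomb genes, 5 were higher and 6 lower in BAT AKO and 6 higher and 4 lower in BAT control, with medians of -0.06 and 0.13. Among them Pcgf2, a subunit of the first Polycomb complex, was higher at 1.30 and 1.36. Phc3 (-0.75 in AKO and -0.83 in control tissue) and Rnf2 (-0.54 and -0.74) were lower. Of 13 trithorax and H3K27 demethylase genes, 3 were higher and 3 lower in BAT AKO and 5 higher and 2 lower in BAT control, with medians of -0.01 and 0.09, and Kdm6b, which removes the Polycomb mark, stood at 1.14 and 0.78.

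Among 17 retinoic acid genes, of which 14 were tested in AKO and 13 in control tissue, 3 were higher and 6 lower in BAT in each genotype, with medians of -0.62 in AKO and -0.58 in control tissue. Rarb, a retinoic acid receptor that is itself a target of retinoic acid, was higher in BAT by log2 2.79 in AKO and 2.497 in control tissue, and the synthetic enzymes Aldh1a1 (-2.76 and -3.03) and Aldh1a3 (-1.98 and -3.01) were lower. The 3 Cdx genes, which act above the posterior Hox genes in the embryo, did not pass the filter. Of 21 genes that flank or lie within the clusters, 15 were tested in AKO and 14 in control tissue, and 7 were higher and 2 lower in BAT AKO and 4 higher and 2 lower in BAT control, with medians of 0.52 and 0.35. Mtx2, next to the Hoxd cluster and part of a mitochondrial import complex, was higher in BAT by 2.00 in AKO and 1.30 in control tissue, and Hibadh, an enzyme of valine breakdown that lies beyond the Hoxa cluster, by 1.42 and 1.37.

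Inside the clusters the annotation places 46 further genes, of which 29 had a count and 10 had over 100 counts in all. The noncoding gene Gm53 (chr11:96251105-96264868), between Hoxb9 and Hoxb13 and just before Mir196a-1, had 0 counts in all 6 BAT libraries, against 16, 11 and 19 in WAT AKO and 5, 13 and 5 in WAT control; it was singled out after its values were seen. The antisense gene Gm15050 in the anterior Hoxa cluster had 34, 35 and 47 counts in BAT AKO, against 20, 30 and 25 in WAT AKO, and 42, 42 and 50 in BAT control, against 12, 14 and 24 in WAT control, and was likewise chosen after its values were seen. Of 16 depot transcription factors, 13 were tested, 5 were higher and 2 lower in BAT AKO and 5 higher and 4 lower in BAT control, with medians of 0.30 and -0.16. Among them Zic1, a marker of classical brown fat, had 125, 59 and 167 counts in BAT AKO, against 0, 1 and 0 in WAT AKO, and 82, 115 and 112 in BAT control, against 6, 1 and 0 in WAT control.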

How the data were processed

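The 12 libraries hold polyadenylated RNA of brown and inguinal white fat, grouped and numbered by their titles. Per the labels, TRIzol was used for extraction. The deposited counts are whole reads per Ensembl gene, made by the authors with Bowtie2 2.2.3, HISAT2 2.1.0 and HTSeq 0.6.0 on mm10, per the submitters' processing notes; the sources used here do not give the annotation or the strand setting. The FPKM values deposited by the authors equal counts divided by exon length in GENCODE M21 and by library total (largest relative deviation 1.22e-08 at 20 counts or more), so they hold no TMM scaling. Of 39 Hox genes, 16 share exon bases with another gene, 10 of them on the opposite strand.

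The test on counts was the quasi-likelihood F-test of edgeR 4.0.16 under R 4.3.3 (TMM, filterByExpr with a minimum count of 10 and total of 15, Benjamini-Hochberg over all genes, threshold 0.05). Fold changes and bounds use TMM-scaled depth, with TMM factors of 0.845 to 0.875 in BAT and 1.05 to 1.26 in WAT, and levels are FPKM without it. The main edgeR fit of each comparison was run on simulated counts. The changes planted there were large and lay in genes with many counts. That run therefore does not cover small changes, genes near 0 or the alternative fits. The members and lists were chosen with earlier results of these data known. Values per library are given for genes called in both tissue comparisons, at a change of direction, and for the 3 smallest p per tissue in AKO against control; for each list, up to 4 genes with the smallest p in the control comparison could be named.

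Between BAT and WAT libraries of 1 number, correlations of deviations from group means were 0.567, 0.676 and 0.136 in AKO. In control they were 0.517, 0.238 and 0.450. Between unlike numbers they ran from -0.648 to 0.431 in AKO and from -0.463 to 0.0737 in control. BAT AKO 1 with WAT AKO 3 (0.431) thus exceeded number 3 (0.136), and both AKO libraries of number 2 (0.676) are muscle-rich. The numbers may pair the tissues, most plainly in control, but this is not settled in AKO. The main fits hold no block, and the fit with the replicate number as a block is given where it changes a call. Alternatives were DESeq2 1.42.0, RLE factors, other filters, limma 3.58.1 (voom and log2 FPKM), each library left out, all 12 libraries in 1 fit and the 3 muscle-rich libraries left out. Library totals without TMM were added after seeing the data. The values of some genes are not reported here, and counts and sums include them.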

Additional observations from a re-analysis of the deposited data

How the results depend on the processing

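The 33 calls of single Hox genes between BAT and WAT and 10 values of Hox genes named for AKO against control or its difference between the fats were recomputed. Under the alternatives 699 values kept direction and side of the threshold, 68 lost the call, 5 of the AKO values (Hoxc8 and Hoxc5) gained one and 0 turned sign. Among Hox genes not called between BAT and WAT, 15 calls were gained, 5 in AKO and 4 in control tissue with library totals, 2 in control tissue with the replicate block, and 1 in AKO and 3 in control tissue with all 12 libraries in 1 fit; such gains were listed for these 3 settings. The count of Hox genes higher in BAT AKO (7) was 4 with library totals, log2(FPKM + 1), log2(FPKM + 0.1) and a mean FPKM of at least 1, and the count lower (9) was 14 under the first 3 of these. The count higher in BAT control (7) was 4 with log2(FPKM + 1). Leaving out 1 library gave 7 higher and 6 to 9 lower in BAT AKO, and 5 to 6 higher and 7 to 11 lower in BAT control. With the replicate number as a block, Hoxd4 was lost and Hoxb2 and Hoxa7 were gained in control tissue, to 8 higher and 10 lower, and it changed no other call of a Hox gene.

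Between AKO and control, Hox genes called were 1 in BAT with DESeq2, and for the difference between the fats 1 with no filter, 2 with DESeq2 and 0 to 1 without 1 library, against 0. The counts over all genes depended on the setting, and the cause was not tested. In WAT (3) they were 277 with no filter, 1679 with DESeq2, 1 with voom, 5 with log2(FPKM + 1), 13 with a mean FPKM of at least 1, 0 with the replicate block, 1030 with all 12 libraries in 1 fit, 0 without the muscle-rich libraries and 1 to 1649 without 1 library, the highest without WAT control 2. In BAT (11) they were 33 with no filter, 280 with DESeq2, 7 with log2(FPKM + 0.1), 1 with the replicate block, 1 without the muscle-rich library and 0 to 95 without 1 library. For the difference (45) they were 22 with library totals, 132 with no filter, 973 with DESeq2, 24 with voom, 99 with log2(FPKM + 1), 86 with log2(FPKM + 0.1), 112 with a mean FPKM of at least 1, 5 without the muscle-rich libraries and 2 to 923 without 1 library. Numbers do not pair AKO with control libraries (correlations 0.219 to -0.615). With 3 libraries a group, genes near 0 in BAT are limited by depth.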
